A study of Mus musculus with 4 samples.

Results

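MHC class I presentation was described here through the genes of the peptide-loading pathway and of the immunoproteasome. The list held 10 genes, B2m, Tap1, Tap2, Tapbp, Psmb8, Psmb9, Psmb10, Psme1, Psme2 and H2-K1, and its members were the listed genes whose symbol was attached to a probe of the array. That was the case for 8 of the 10, each with 1 probe, out of 16443 genes with a named probe. Psme2 and H2-K1 had no named probe and have no values here. The list groups genes by function, but it was chosen with earlier results of these data known. B2m, Tap1 and Psmb8 are also 3 genes that the study itself printed because they were higher on these arrays. What the members show, and these 3 above all, is therefore no independent support.

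RNA came from 4 cultures of tumor organoids grown from intestinal polyps of ApcMin mice, which carry a mutant allele of the Wnt pathway inhibitor Apc, in Matrigel and serum-free medium with EGF and Noggin. The untreated control was compared with organoids given 1 μM 5-Aza-CdR, a cytidine analog that inhibits DNA methylation, for 24 hours and collected at day 4. The control shRNA organoids, infected with an empty lentiviral shRNA vector and selected with puromycin, were compared with organoids infected with a lentiviral shRNA against the DNA methyltransferase Dnmt1, both collected at day 9. Each condition was measured on 1 array, and the sources used here give neither the number of mice nor of infections behind a culture. Differences between arrays thus come without replicate error or p-value. The only spread that could be measured was that between probes of the same gene, whose log2 ratios had an SD of 0.21 for 5-Aza-CdR, 0.15 for Dnmt1 knockdown and 0.46 between the controls. It holds probe error and no variation between cultures.

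Cells cut their own and viral proteins into peptides with the proteasome, and interferon exchanges its catalytic beta subunits for the inducible Psmb8, Psmb9 and Psmb10, while Psme1 and Psme2 form the PA28 cap that opens the core particle. Tap1 and Tap2 carry the peptides into the endoplasmic reticulum, where tapasin, the product of Tapbp, holds the transporter next to empty class I molecules. A class I molecule is a heavy chain such as H2-K1 paired with the light chain beta-2-microglobulin, the product of B2m, and shows its peptide at the cell surface to CD8 T cells. Intestinal epithelial cells express the pathway at a basal level and raise it in response to interferon.

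The promoters of the members are shown because the members lay higher together in both comparisons and because interferon-regulated factors bind short motifs in such regions. RefSeq windows of GRCm38.p6 from 250 bases before to 50 bases after a start site were searched on both strands for the core of the interferon-stimulated response element (GAAANNGAAA), the gamma-activated site (TTCNNNGAA, which reads the same on both strands), the kappaB motif and the CCAAT box. The capitals below mark the matches to these motifs. The B2m stretch is the 180 bases before its start site, at chr2:122147507-122147686 on the plus strand, and the Psmb8 stretch the 120 bases before its start site, at chr17:34198075-34198194 on the plus strand. Tap1 and Psmb9 are transcribed away from each other, and their stretch is all 225 bases between both start sites, at chr17:34187331-34187555, written on the strand of Tap1. The Psme1 stretch covers 30 bases across its start site, at chr14:55578487-55578516 on the plus strand.
B2m: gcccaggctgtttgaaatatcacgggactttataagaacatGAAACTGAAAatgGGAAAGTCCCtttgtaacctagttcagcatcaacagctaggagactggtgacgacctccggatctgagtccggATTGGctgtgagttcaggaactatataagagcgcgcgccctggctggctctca
Psmb8: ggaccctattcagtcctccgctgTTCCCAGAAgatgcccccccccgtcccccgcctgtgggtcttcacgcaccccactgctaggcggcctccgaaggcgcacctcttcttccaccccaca
Tap1 and Psmb9: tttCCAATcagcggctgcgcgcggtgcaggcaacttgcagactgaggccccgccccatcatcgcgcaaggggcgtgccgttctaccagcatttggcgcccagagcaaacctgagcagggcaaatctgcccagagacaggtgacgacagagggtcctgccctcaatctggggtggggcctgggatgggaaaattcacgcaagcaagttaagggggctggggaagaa
Psme1: aggtttcgagctgtgcTTTCGCTTTCcctt

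B2m held the interferon element (GAAACTGAAA), a kappaB match directly behind it and a CCAAT box near the start site. Psme1 held the interferon element on the other strand, just downstream of its start site, and Psmb8 held a gamma-activated site. The region between Tap1 and Psmb9 held a CCAAT box on the Psmb9 side and none of the other motifs, and the window of Psmb10 held none of the 4. No window for Tap2 was at hand, and that of Tapbp held CCAAT boxes only. Of the members without values, Psme2 held none of the motifs and H2-K1 held kappaB matches and CCAAT boxes. Over all 32851 windows, 3.44% held the interferon element, 8.3% the gamma-activated site, 8.46% the kappaB motif and 37.4% the CCAAT box. The CG dinucleotide, the site of DNA methylation, occurred 14 times in the window of B2m, 17 times in that of Psmb9, 15 times in that of Tap1, 19 times in that of Psme1, 11 times in those of Psmb8 and Tapbp and 3 times in that of Psmb10, against a median of 7 over all windows. Fewer CG were held by 23.3% of all windows for Psmb10, and by 58.6% to 71.9% for the others, so none of these counts was extreme. These matches are letters in a sequence, and no binding or methylation was measured on these arrays.

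Values per array are given as the intensity the authors deposited, on a scale where the median of each array is 25. Log2 ratios come from the spot signals after normexp background correction with an offset of 50 and quantile normalization, and the offset draws the ratios of dim probes toward 0. A gene was called higher or lower at a 2-fold difference. All 8 members were detected on all 4 arrays, and all 8 also lay above the 95th percentile of spots that carry no probe, which was at intensities of 1.9 to 4.48. Of all probes, 81.1% to 92.9% were detected on an array. The knockdown target Dnmt1 gave 126 on the control shRNA array and 71.7 on the knockdown array, or a log2 ratio of -0.69. The epithelial genes Tacstd1 (Epcam), which marks epithelial cells, and Cdh1, which joins them to each other, had intensities of at least 2684 and 968. Of the 6 epithelial markers with a named probe, Krt19, a keratin, had only 3.11 to 6.71, and on the control shRNA array it was below that percentile (3.37 there).

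With 5-Aza-CdR, all 8 members had log2 ratios above 0, and 5 of them, B2m, Psmb8, Tap1, Tapbp and Psmb9, were at least 2-fold higher than in the untreated control. Over all 15637 genes detected in this comparison, 0.927% were that much higher and 48.1% lay above 0. With Dnmt1 knockdown, all 8 members again had log2 ratios above 0, and 3 of them, B2m, Psmb10 and Psmb9, were at least 2-fold higher than in the control shRNA organoids, against 0.327% of 14390 genes, of which 49.5% lay above 0. The median log2 ratio of the members was 1.08 for the drug and 0.73 for the knockdown, and the median of all genes was -0.003 and -0.001. None of the 8 was 2-fold lower in either comparison, where 0.652% and 0.146% of all genes were. B2m and Psmb9 were called in both, against 0.189% of 14314 genes, and 25.3% of those genes lay above 0 in both. With median scaling, 75th percentile scaling or quantiles within each comparison, Psmb9 had 0.92 to 0.94 with Dnmt1 knockdown, below the limit. In the deposited intensities 5 and 6 members were at least 2-fold higher, against 5.54% and 4.35% of all genes, and none was 2-fold lower, against 2.01% and 0.759%.

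**Figure D1:**
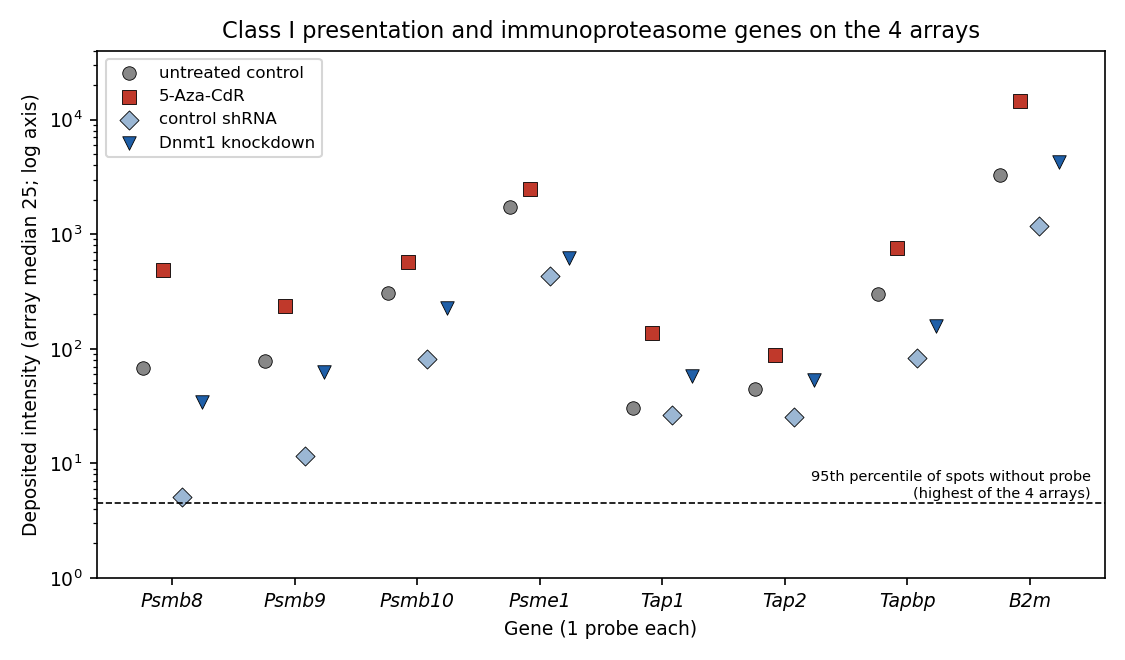
Deposited intensity (log axis, array median 25) of the 8 genes on the 4 arrays, 1 point per array, with the 95th percentile of spots that carry no probe, on the array where it was highest, as a dashed line. The 5-Aza-CdR point is the highest for each gene, and the control shRNA point of Psmb8, at 5.04, lies next to the dashed line at 4.48.

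The light chain B2m had intensities of 3312 untreated and 14585 with the drug, and of 1191 with the empty vector and 4268 with Dnmt1 shRNA. Its log2 ratios were 2.34 and 1.82, at rank 10 of 15637 genes with 5-Aza-CdR and rank 16 of 14390 with Dnmt1 knockdown. B2m lay highest after 5-Aza-CdR, and the Dnmt1 knockdown organoids were above both controls on the main and the deposited scale. The ring of pixels around a spot, which the scanner reports as local background, was as bright as the B2m spot itself on both lentiviral arrays, at 103% and 104% of its signal, and reached 52.1% and 43.7% of it on the untreated and 5-Aza-CdR arrays. When this local background entered the correction, the log2 ratio of B2m with Dnmt1 knockdown turned to -0.29, that with 5-Aza-CdR was 2.65 and that between the controls -4.51, which puts the Dnmt1 knockdown organoids below both controls. Over all probes the local background was higher where the signal was higher, with a correlation of 0.81 to 0.96 between their logs across the probes of an array.

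Among the catalytic subunits of the immunoproteasome, Psmb8, which replaces Psmb5, measured 67.5 untreated and 483 with the drug, and 5.04 with the empty vector and 34.1 with Dnmt1 shRNA. The log2 ratios were 2.12, at rank 16, and 0.80, at rank 72. In the deposited intensities these differences were 7.15-fold and 6.77-fold. Over the members in both study comparisons the gap between the main and the deposited scale was widest for Psmb8 with Dnmt1 knockdown, where the control lay near the level of spots without probe (3.37 on that array), and the log2 ratio was 0.80 on one scale and 2.76 on the other. Psmb9, which replaces Psmb6, measured 77.8 untreated and 234 with the drug, then 11.7 with the empty vector and 62.2 with Dnmt1 shRNA, giving log2 ratios of 1.06 and 1.10. Psmb10, which replaces Psmb7, had 304 and 570, and 81.8 and 226, with log2 ratios of 0.67 and 1.11. For each of the 3 subunits both treated arrays lay above their own controls. Psmb8 differed by 1.32 more with 5-Aza-CdR than with Dnmt1 knockdown on the log2 scale and Psmb10 by 0.44 less, and the log2 ratios of Psmb9 were close to each other. On the deposited scale the log2 ratios of Psmb8 in both comparisons were close to each other, at 2.84 and 2.76, while Psmb9 had 1.59 and 2.41. With the local background in the correction those of Psmb8 were 1.70 and 0.00, while Psmb9 had 1.02 in both and Psmb10 had 0.20 and 1.30.

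The constitutive subunits that these proteins replace stayed under the 2-fold limit in both study comparisons. Psmb5 had log2 ratios of 0.59 for the drug and -0.05 for the knockdown, Psmb6 had 0.25 and -0.01, and Psmb7 had -0.04 and -0.08. The log2 ratio of each inducible subunit minus that of its counterpart was 1.53 for Psmb8, 0.81 for Psmb9 and 0.71 for Psmb10 with 5-Aza-CdR, and 0.85, 1.11 and 1.19 with Dnmt1 knockdown. All 6 of these differences were larger than the SD of a log2 ratio between probes of a gene. That SD does not measure the spread of a difference between 2 genes. Psmb5 had the largest log2 ratio of the counterparts, with a deposited intensity 1.47-fold higher after 5-Aza-CdR.

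**Figure D2:**
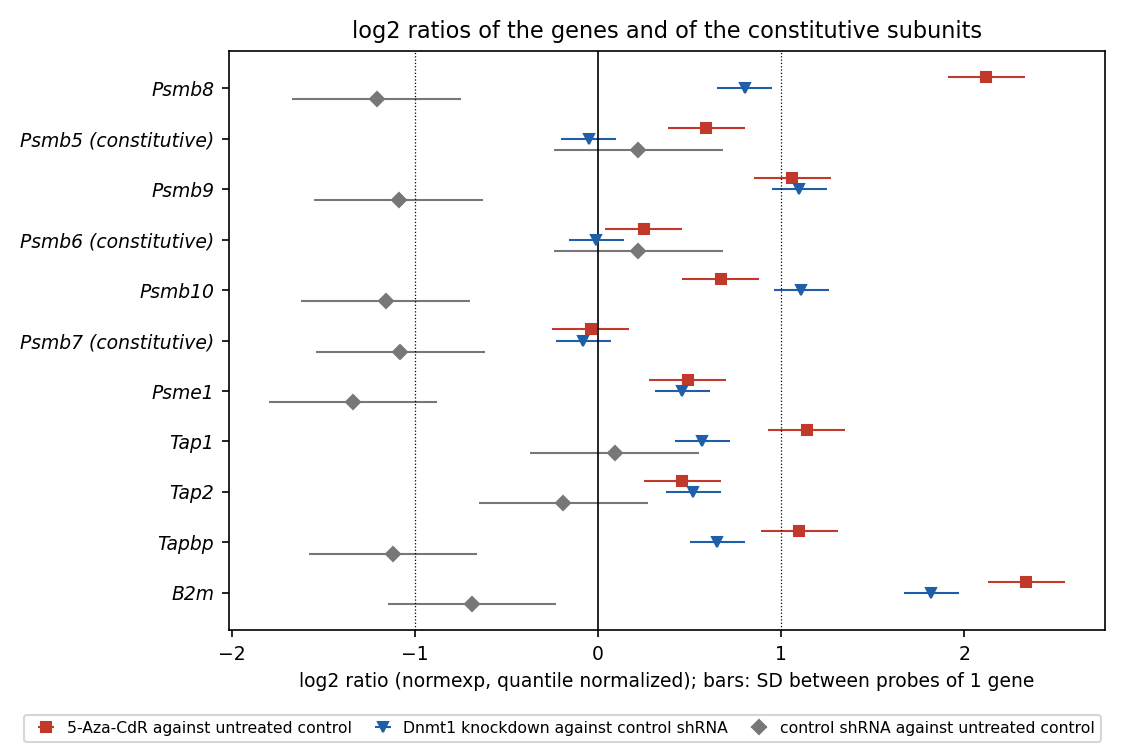
log2 ratios (horizontal axis) of the 8 genes and of the 3 constitutive subunits in 3 comparisons, with bars for the SD between probes of 1 gene in that comparison and dotted lines at 2-fold. The inducible subunits lie to the right of 0 in both study comparisons, where Psmb6 and Psmb7 stay between -0.08 and 0.25. Psmb5 lies at 0.59 with 5-Aza-CdR, above Psme1 and Tap2, and at -0.05 with Dnmt1 knockdown. Between the controls Psmb7 lies at -1.08.

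Psme1, the alpha subunit of the PA28 cap, measured 1719 untreated and 2461 with the drug, and 429 with the empty vector and 617 with Dnmt1 shRNA. Its log2 ratios of 0.49 and 0.46 were among the smallest of the members and below the 2-fold limit, and its local background was 56.8% to 102% of the signal. With that background in the correction they became 2.14 and -1.11. Psmf1, an inhibitor of the proteasome, had log2 ratios of 0.17 and 0.14, and Psme4, the activator PA200, had -0.19 and 0.06.

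Of the transporter genes, Tap1 measured 30.7 untreated and 136 with the drug, then 26.6 with the empty vector and 57.7 with Dnmt1 shRNA, for log2 ratios of 1.14 and 0.57. Tap2 had 44.2 and 87.4, and 25.5 and 53.1, with log2 ratios of 0.46 and 0.52. The log2 ratio of Tap1 was larger than that of Tap2 by more than the SD between probes with 5-Aza-CdR, and by less than it with Dnmt1 knockdown. Here too that SD is not the spread of a difference between 2 genes. On the deposited scale Tap1 was 4.44-fold and 2.17-fold higher and Tap2 1.98-fold and 2.08-fold higher. With the local background in the correction the ratios of Tap1 were 0.60 and -0.04. Tapbp, which encodes tapasin, had intensities of 298 and 764, and 82.5 and 157, with log2 ratios of 1.10 and 0.65. Its local background was 88.1% and 102% of the signal on the lentiviral arrays, and with that background in the correction its log2 ratio with Dnmt1 knockdown was -0.41 and with 5-Aza-CdR 1.17.

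**Figure D3:**
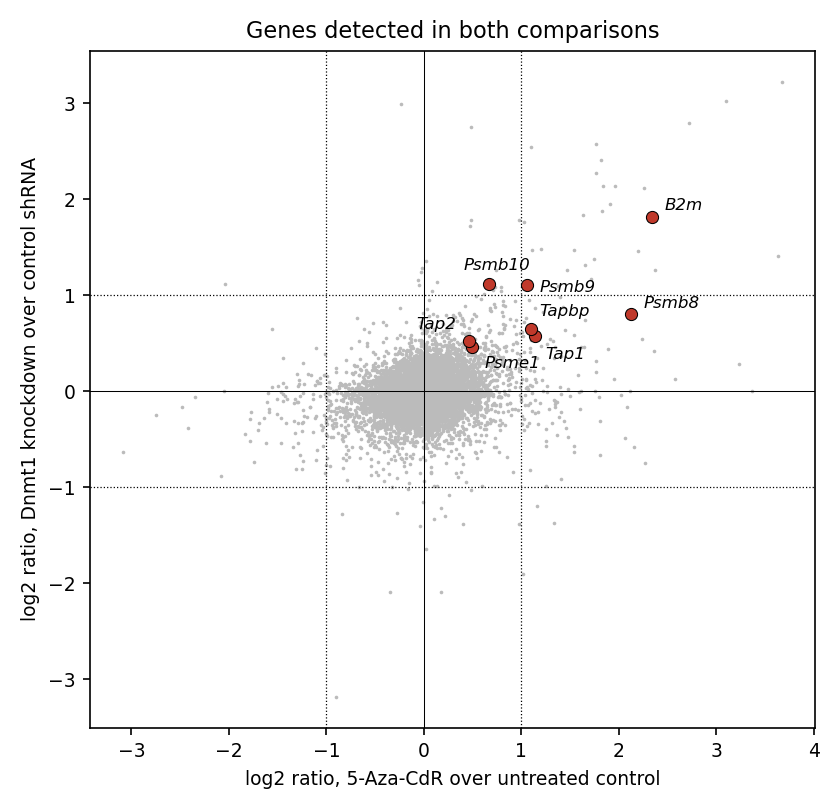
log2 ratio with 5-Aza-CdR (horizontal axis) against that with Dnmt1 knockdown (vertical axis) for the 14314 genes detected in both comparisons (gray), with the 8 genes in red and dotted lines at 2-fold. All 8 lie in the upper right quadrant, and B2m and Psmb9 lie beyond both 2-fold lines.

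The 2 control cultures differed from each other in these genes as well. On the control shRNA array 5 of the 8 members were lower than on the untreated array by 2-fold or more, with log2 ratios against it for Psme1 (-1.34), Psmb8 (-1.21), Psmb10 (-1.16), Tapbp (-1.12) and Psmb9 (-1.09), against 3.97% of 15138 genes. B2m had -0.69, but passed the limit in the deposited intensities (-1.48), with median scaling (-1.22), with 75th percentile scaling (-1.06) and with local background (-4.51). Tap2 had -0.19, and Tap1, with 0.09, was the only member above 0, where 45.7% of all genes lay. None of the 8 was 2-fold higher, against 3.94% of all genes. The median was -1.10, and -0.015 for all genes. In the deposited intensities 6 members were lower, against 25.5% of all genes, where the median of all genes was -0.49, and none was higher, against 7.23%. The constitutive Psmb7 was lower as well (-1.08), while Psmb5 and Psmb6 both had 0.22, and the log2 ratio of Psmb10 minus that of Psmb7 was -0.08. The summed intensity of 9 mesenchymal markers was 2630 in the untreated control, 708 after 5-Aza-CdR, 83.3 in the control shRNA and 62.8 in the Dnmt1 knockdown organoids, most of it from Vim (vimentin) at 2540 and 560 on the first pair of arrays. Acta2, smooth muscle actin, ran the other way after 5-Aza-CdR, at 12.1 and 83.7 (log2 ratio 1.12), and the median intensity of the 9 markers was 9.33 and 10.3. The part of such cells in the members' values was not tested. These arrays differ in infection, selection, time and culture, which cannot be told apart. The control shRNA array is the denominator of the Dnmt1 knockdown ratio and the untreated array that of the 5-Aza-CdR ratio.

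Set against the untreated control instead, the Dnmt1 knockdown organoids lay below it in 4 of the 8 members, Psme1 (-0.88), Tapbp (-0.46), Psmb8 (-0.41) and Psmb10 (-0.05). They lay above it in B2m (1.13, an order that turned with local background), Tap1 (0.66), Tap2 (0.34) and Psmb9 (0.02). For Psmb9 and Psmb10 these distances were below each of the SDs between probes given above, none of which was measured for this comparison. In the deposited intensities Psmb9 lay below the untreated control too. The share of all genes below the untreated control on the Dnmt1 knockdown array was not counted, so the 4 of 8 are a description only. The order from low to high ran control shRNA, Dnmt1 knockdown, untreated control and 5-Aza-CdR for Tapbp, Psmb8, Psmb10 and Psme1. For B2m, Tap2 and Psmb9 the untreated control and Dnmt1 knockdown changed places, and in Tap1 the untreated control was the lowest, although in the deposited intensities the control shRNA was lowest for Tap1 as well. In 7 of the 8 members the control shRNA was lowest and 5-Aza-CdR highest, which held for 9.49% of the 13454 genes detected on all 4 arrays. Tap1 and Psmb9, which share the region printed above between their start sites, differed in this respect. With 5-Aza-CdR their log2 ratios were 1.14 and 1.06, with ranges over the processing settings of 0.60 to 2.15 and 1.02 to 1.59. Between the controls Tap1 had a log2 ratio of 0.09 and Psmb9 of -1.09, with ranges of -0.20 to 0.20 and -2.73 to -0.70.

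Tap1, Tap2, Psmb8 and Psmb9 lie side by side in the MHC on chromosome 17. Tapbp lies on the same chromosome outside this block, with its promoter window from 33919228 and that of Psmb9 from 34187281. B2m lies on chromosome 2, Psmb10 on chromosome 8 and Psme1 on chromosome 14. The nearest genes with a named probe around them were read, 3 on either side of each member by RefSeq order, a choice made after the values were known. Of these 30 neighbors outside the list, 1 was at least 2-fold higher, in both comparisons, against 0.927% and 0.327% of all genes. The median log2 ratio of the 30 was 0.01 in both. On the borders of the Psmb9 to Tap2 block, Brd2, a chromatin reader, had 0.39 for the drug and 0.10 for the knockdown, and H2Aa, a class II chain, had 0.02 and 0.01. The 1 neighbor that was called lay beside Psme1 and was Isgf3g (Irf9), which binds DNA within the complex activated by type I interferon, with 1.65 and 1.31.

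Of 35 other class I pathway symbols, 15 had a named probe, and none of these 15 was called in either study comparison. Over all genes 0.927% were higher and 0.652% lower with the drug, and 0.327% and 0.146% with the knockdown. The median log2 ratios of the 15 were 0.09 for the drug and 0.02 for the knockdown. No classical or nonclassical H2 heavy chain was among the 15. Arts1 (Erap1), which trims peptides in the endoplasmic reticulum, had 0.29 and 0.25, and Tapbpl, a relative of tapasin, had 0.09 and 0.01. The general chaperones of the loading complex were not called, with 0.15 and -0.27 for Canx, -0.32 and -0.13 for Calr and 0.29 and -0.35 for Pdia3. Npepps, a cytosolic aminopeptidase, had -0.40 and 0.15, and the translocon subunit Sec61a1 had 0.34 and -0.35. In the deposited intensities none was 2-fold different in these comparisons either, of 15 with values for the drug and 14 for the knockdown. Over all genes 5.54% and 4.35% were higher on that scale, and 2.01% and 0.759% lower. Cd1d1, a class I-like molecule that presents lipids, had intensities of 164 and 168 in the untreated and 5-Aza-CdR organoids and of 6.53 and 8.71 in the lentiviral ones. With a log2 ratio of -2.06 it was the 1 gene of the 15 that was called between the controls. Of all genes 3.97% were lower there and 3.94% higher.

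Of 26 regulators of the pathway, 23 had a named probe, and 1 was called higher after the drug and 2 after the knockdown, against 0.927% and 0.327% of all genes, at median log2 ratios of -0.01 and 0.03. The called genes were Isgf3g in both and Stat2, its partner in the same complex, which had 0.71 for the drug and 1.06 for the knockdown. In the deposited intensities 3 of the 23 were 2-fold higher in each comparison, against 5.54% and 4.35% of all genes. Irf1, a transcription factor that binds the promoters of class I genes, had intensities of 263 and 419, and 119 and 183, with log2 ratios of 0.44 in both. Ifnar2, a chain of the type I interferon receptor, had 0.77 and -0.05, and Relb, a subunit of NF-kB, had 0.27 and -0.54. Ifng, the interferon that induces the immunoproteasome most strongly, had intensities of 4.67 untreated and 4.95 with the drug, above that percentile of the spots without probe (2.42 and 1.9). With the empty vector and Dnmt1 shRNA it had 1.58 and 1.71, below it (3.37 and 4.48). Ifnb1, a type I interferon of the same list, lay above it on all 4 arrays, at 5.15 untreated, 6.68 with the drug, 4.34 with the empty vector and 9.72 with Dnmt1 shRNA. Its log2 ratios were 0.02 and 0.14, and its deposited intensity was 2.24-fold higher with Dnmt1 knockdown. Nlrc5, a transactivator of class I genes, had no named probe.

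Of 4 class II genes with a named probe, none was called with 5-Aza-CdR or Dnmt1 knockdown. Over all genes 0.927% and 0.327% were higher in these comparisons, and 0.652% and 0.146% lower. In the deposited intensities 2 of the 4, Cd74 and Ctss, were 2-fold higher with 5-Aza-CdR, against 5.54% of all genes. Ctss was near the level of spots without probe, at 2.27 untreated (95th percentile 2.42) and 4.97 with the drug. Its log2 ratio was 0.07. C2ta (Ciita), the master regulator of class II, had log2 ratios of -0.02 and -0.07. Cd74, the invariant chain of class II, had 0.99 with 5-Aza-CdR, just under the limit, and 0.04 with Dnmt1 knockdown, with intensities of 60.0 and 181, and of 3.62 and 6.01. It was also lower in the control shRNA (-1.16), as most of the members were.

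Immune cells express the immunoproteasome without interferon, and their markers were therefore read beside the members. Of 24 markers, 21 had a named probe, and none was called in any of the 3 comparisons. Over all genes 0.927% were higher with the drug, 0.327% with the knockdown and 3.94% between the controls, and 0.652%, 0.146% and 3.97% lower. In the deposited intensities, which cover 14 of the 21 markers on both lentiviral arrays, 4 were 2-fold higher with Dnmt1 knockdown, against 4.35% of all genes. These were Ptprc, Cd8b1, Ms4a1 and Gzma, all near the level of spots without probe. They had 1.36 to 2.41 with the empty vector, below the 95th percentile of those spots (3.37). With Dnmt1 shRNA they had 2.83 to 5.06 (percentile 4.48), and their log2 ratios were 0.02 to 0.08. Summed over the list, the intensity was 516 untreated, 647 with the drug, 440 with the empty vector and 423 with Dnmt1 shRNA. Most of it came from Cd14 and Cd68, which are found on monocytes and macrophages. Cd14 had 169 and 318, and 276 and 190, and Cd68 had 194 and 178, and 67.5 and 105. Of 15 markers detected with Dnmt1 knockdown or its control, 10 had log2 ratios above 0. The medians of the log2 ratios were -0.02 and 0.04, and the part of immune cells in the members' values was not tested. Of the 7 defining markers, Itgam was below detection on all 4 arrays, Cd3e, Itgax and Emr1 had intensities of at most 1.53 and were below detection on both lentiviral arrays, and Ptprc, the pan-leukocyte marker CD45, of at most 4.84. Csf1r had 51.9, 51.6, 31.9 and 38.3 in the order of the arrays above, and Cd79a at most 9.09. In these bulk samples, more RNA per cell and more cells that express a gene cannot be told apart.

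The profile of the members over the 4 arrays, each gene centered on its own mean, had a median of -0.06 in the untreated control, 0.99 after 5-Aza-CdR, -1.01 with the empty vector and 0.05 with Dnmt1 shRNA on the log2 scale. Psmb9 lay closest to it (Euclidean distance 0.12 over the 4 arrays) and Psmb8 farthest (1.21). Of 13446 other genes detected on all 4 arrays, the closest was Lgals9, galectin-9 (distance 0.33), with log2 ratios of 0.80 for the drug and 1.09 for the knockdown. Ifitm3, an interferon-induced membrane protein that restricts viral entry, followed with 0.73 and 0.87 (0.40), then Tnip1, an inhibitor of NF-kB signaling, with 0.94 and 0.51 (0.43), 1700007K13Rik with 1.30 and 0.55 (0.46) and the probe named Olfr56 with 1.47 and 1.26 (0.47). All 5 were lower in the control shRNA than in the untreated control, with log2 ratios of -0.57 to -1.32. A likeness over 4 arrays is a description only.

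**Figure D4:**
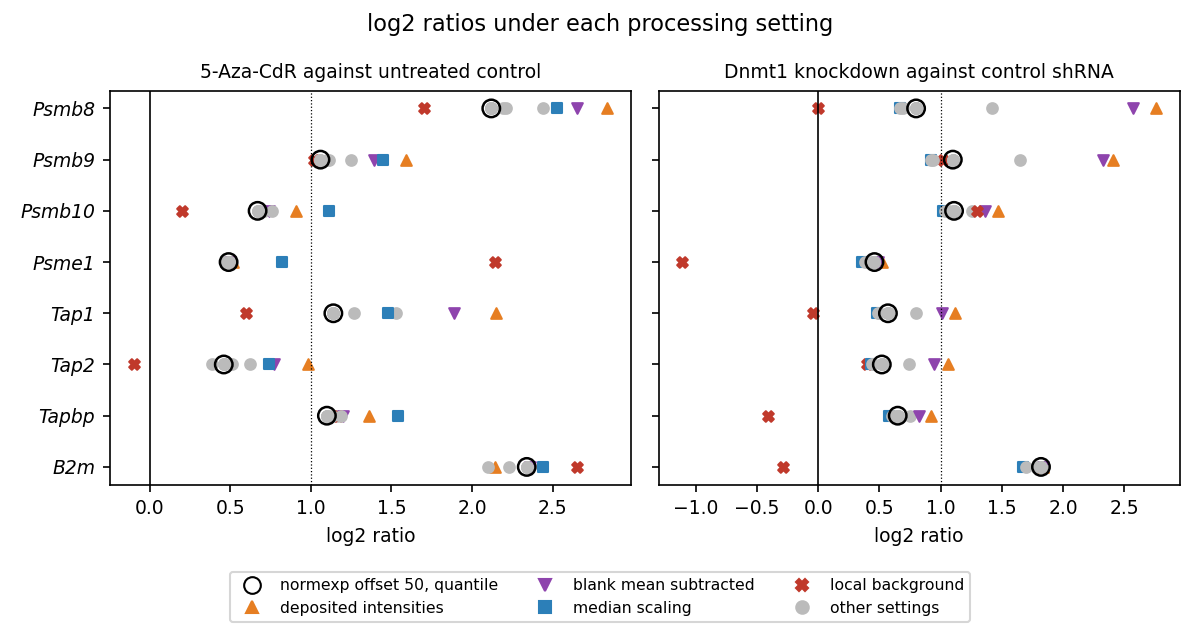
log2 ratios (horizontal axis) of the 8 genes with 5-Aza-CdR (left) and Dnmt1 knockdown (right) under each processing setting, with the reported value as an open circle and dotted lines at 2-fold. Points fall left of 0 only where the local background was used, for Tap2 with 5-Aza-CdR (-0.10) and for B2m, Tap1, Tapbp and Psme1 with Dnmt1 knockdown (lowest -1.11).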

How the data were processed

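RNA of 4 organoid cultures was hybridized in 1 color (Cy5) to 1 Toray array each. The scanner files deposited by the authors hold the median intensity of each spot and of its local background. In the value table deposited by the authors, the intensity is the spot signal minus the trimmed mean of the blank spots, scaled to an array median of 25, which 100% of the values recomputed within 1% bore out. Their software is not given in the sources used here. Spot signals were corrected by normexp (offset 50, without local background) then brought to common quantiles across all 4 arrays (limma 3.58.1, R 4.3.3, with later steps in Python 3.11.15). Probes flagged by the scanner were left out, spots of a probe were averaged, and the brightest probe stood for a gene. A gene was counted where the brighter array exceeded the blank mean plus 2 SD. Of 23473 probes, 16631 had a gene symbol and 6842 are unnamed here. Of 16443 symbols, 16381 matched RefSeq. Precision is limited by the number of arrays, and 1 array per group allowed no model. Alternatives were the deposited intensities, other offsets, backgrounds, scalings, detection filters, probe choices and fold limits. Psme2 and H2-K1 were not analysed here. The labels and the methods name different RNA extraction kits. The normalization was tested on simulated arrays with fold changes set in bright probes only. Fold changes in dim probes, the local background setting and the motif search were not tested this way. The members, gene lists, alternatives and named genes (all members, counterparts by role, up to 5 of each list with the largest log2 ratio, the 5 nearest profiles) were chosen with earlier results of these data known.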

Additional observations from a re-analysis of the deposited data

Results flagged for a closer look

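Among the members and the named genes of the class I, counterpart, regulator and class II lists, 4 had log2 ratios of opposite sign in both comparisons. Each ratio was at or beyond the SD between probes of a gene (0.21 and 0.15), and the difference between the comparisons was not tested. With 5-Aza-CdR and with Dnmt1 knockdown these were -0.40 and 0.15 for Npepps, 0.29 and -0.35 for Pdia3, 0.34 and -0.35 for Sec61a1 and 0.27 and -0.54 for Relb. None of the 8 members was among them, and none of the 4 reached the 2-fold limit in either comparison. Outside these lists, the knockdown target Dnmt1 had 0.39 and -0.69, and the immune markers Cd14 and Cd68 had 0.62 and -0.53, and -0.26 and 0.41.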

How the results depend on the processing

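In 10 of the 11 other settings applied to the log2 ratios, all 80 values of the 8 members lay above 0 with 5-Aza-CdR and all 80 with Dnmt1 knockdown, though detection filters and probe choices cannot move a gene with 1 probe detected on every array. No paired analysis was possible because each group has 1 array. The exception was the correction with local background, where the called ratio of B2m with Dnmt1 knockdown turned to -0.29, the median of the members there was -0.02 with 1 member lower (2.52% of all genes), and 2 members were lower between the controls (4.05%). The deposited intensities gave medians of 1.47, 1.29 and -1.87 for 5-Aza-CdR, Dnmt1 knockdown and the controls, with 6 members higher with Dnmt1 knockdown (4.35%), and the medians of all genes were 0.17, 0.17 and -0.49. Plain subtraction of the blank mean gave medians of 1.30 and 1.18 and 5 members higher with Dnmt1 knockdown (3.26% of all genes), an offset of 16 a median of 1.03 with Dnmt1 knockdown, and median scaling one of 1.47 with 5-Aza-CdR, where 2.19% of all genes were then higher and 0.333% lower, against 0.927% and 0.652%. With 75th percentile scaling the median of all genes with 5-Aza-CdR was -0.34. With median scaling, 75th percentile scaling and quantiles within each comparison, 2 members were higher with Dnmt1 knockdown (0.257%, 0.278% and 0.299% of all genes). Psmb9 had 0.92, 0.94 and 0.92 there and was no longer called. With local background 2 members were higher as well (1.43%), and B2m was not among them. At a 1.5-fold limit 5 members were higher with Dnmt1 knockdown (1.08% of all genes). A 3-fold limit left 2 members for the drug (0.288%), 1 for the knockdown (0.139%) and 0 lower between the controls (1.27%). The causes of these shifts were not tested. The control shRNA spot of Psmb8 lay near the spots without probe. Local background exceeded the signal for B2m on both lentiviral arrays, and for Tapbp and Psme1 on the Dnmt1 knockdown array. The B2m spots themselves were bright there, with signals of 1700 and 5550 against blank means of 43.7 and 45.0.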
